A study of Homo sapiens with 3 samples.

Results

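The HOX genes encode homeodomain transcription factors and lie in 4 clusters, HOXA, HOXB, HOXC and HOXD, on separate chromosomes. Their expression was examined in Cal62 thyroid cancer cells with and without a knockdown of ADAR1. The members were the rows of the gene table whose Ensembl identifier carried a protein-coding symbol made of HOX, a cluster letter and a number in the GENCODE annotation of GRCh38. All 39 such genes were found among the 58333 rows, with 11 in HOXA, 10 in HOXB, 9 in HOXC and 9 in HOXD.

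Cal62 is an established human thyroid tumor cell line, grown here in DMEM with FBS. The cells were transfected with a negative control siRNA (siControl) or with 1 of 2 siRNAs against ADAR1 (siADAR1 #1 and siADAR1 #2), and Lipofectamine RNAimax was used in all 3 groups. ADAR1, the product of the ADAR gene, converts adenosine to inosine in double-stranded RNA, and the comparison asked how its loss changes gene expression. Poly(A)+ RNA was sequenced in 6 libraries, 2 per group. The labels give 1 sample per transfection and the table holds 2 columns for each, which were taken as the 2 biological replicates named in the study's methods. The p-values therefore measure the spread between these libraries, all from 1 cell line, and the time from transfection to RNA isolation was not given for them in the sources used here.

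In animals the HOX genes are switched on in the order in which they lie on the chromosome, so that genes at the 3′ end of a cluster (low numbers) act at the head and genes at the 5′ end (high numbers) toward the tail and the limb tips. Genes with the same number in different clusters are paralogs that arose when the clusters were copied. Their proteins bind DNA through a homeodomain, often together with PBX and MEIS partners, and Polycomb and Trithorax complexes keep the genes off or on. The adult thyroid develops from the foregut floor, where HOXA3 and its paralogs take part in shaping the pharyngeal organs.

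The libraries held 30114840 to 50029763 reads on genes, and the 39 HOX genes together took only 0.0069% to 0.0104% of them. ADAR had 10906 and 11701 normalized counts (reads divided by the size factor of the library) in siControl, 1328 and 2246 with siADAR1 #1, and 1663 and 2928 with siADAR1 #2, which is 15.8% and 20.3% of the siControl mean. Every library thus carried the ADAR level its label names. The thyroid transcription factors PAX8 (12789 and 15557 reads in siControl) and HHEX (1831 and 1989 reads) were present and NKX2-1 had 0 reads in every library. Thyroglobulin (TG) had 0 to 55 reads. The epithelial keratin KRT8 had 24648 to 42191 reads, and the leukocyte marker PTPRC 0 to 5.

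The homeobox sequences below are shown because reads of HOX paralogs could in principle be confused, and because HOXB7 and HOXB9 carry most of the HOX reads. Each is the 180-base stretch that encodes the homeodomain, in exon 2 of 2, on the minus strand, read 5′ to 3′ from GRCh38. The stretch of HOXB7 lies at chr17:48607908-48608087 and that of HOXB9 at chr17:48622921-48623100. Capitals mark bases that differ between them.
HOXB7: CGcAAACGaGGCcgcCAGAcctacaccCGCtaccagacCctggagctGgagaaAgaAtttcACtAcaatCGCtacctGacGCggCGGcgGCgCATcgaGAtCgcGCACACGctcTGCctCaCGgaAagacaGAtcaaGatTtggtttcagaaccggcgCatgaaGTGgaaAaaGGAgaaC
HOXB9: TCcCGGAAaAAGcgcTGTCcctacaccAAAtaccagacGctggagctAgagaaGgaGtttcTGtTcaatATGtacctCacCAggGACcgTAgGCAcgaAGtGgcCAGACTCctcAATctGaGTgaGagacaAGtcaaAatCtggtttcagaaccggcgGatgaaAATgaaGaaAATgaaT
HOXB7 and HOXB9 differed at 68 of these bases (62.2% identical). Over all 741 pairs of HOX genes the homeoboxes were 47.8% to 91.1% identical with a median of 61.1%. The longest identical run was 51 bases, shorter than a read of 75 bases. Outside the homeobox, 3 pairs shared a stretch of 75 bases (HOXB3 with HOXB6, HOXC4 with HOXC6, and HOXD10 with HOXD11), and in each pair the exons overlap on the chromosome.

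Promoter windows are shown for HOXA6, which fell with both siRNAs, for the upstream start that HOXC4 and HOXC5 share in RefSeq, and for HOXD1 and HOXD13, whose changes differed between the siRNAs. They run from 250 bases before to 50 bases after the start and come from RefSeq on GRCh38.p14, in which 20 HOX genes matched an entry, 8 of them among the genes tested below. The windows are HOXA6 at chr7:27147725-27148024 (minus strand), HOXC4 and HOXC5 at chr12:54016638-54016937 (plus strand), HOXD1 at chr2:176188418-176188717 (plus strand) and HOXD13 at chr2:176092471-176092770 (plus strand). In GENCODE the HOXC5 gene starts downstream of the shared window, at chr12:54033050. Capitals mark matches on either strand to a TATA box (searched as TATAAA), to the pentamer CCAAT and to a GC box (searched as GGGCGG), and neighboring matches can overlap.
HOXA6: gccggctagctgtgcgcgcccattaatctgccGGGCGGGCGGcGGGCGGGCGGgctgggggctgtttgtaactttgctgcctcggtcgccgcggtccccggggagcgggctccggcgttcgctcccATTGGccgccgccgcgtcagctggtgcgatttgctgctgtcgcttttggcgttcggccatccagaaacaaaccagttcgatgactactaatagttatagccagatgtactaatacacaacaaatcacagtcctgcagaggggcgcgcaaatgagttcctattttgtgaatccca
HOXC4 and HOXC5: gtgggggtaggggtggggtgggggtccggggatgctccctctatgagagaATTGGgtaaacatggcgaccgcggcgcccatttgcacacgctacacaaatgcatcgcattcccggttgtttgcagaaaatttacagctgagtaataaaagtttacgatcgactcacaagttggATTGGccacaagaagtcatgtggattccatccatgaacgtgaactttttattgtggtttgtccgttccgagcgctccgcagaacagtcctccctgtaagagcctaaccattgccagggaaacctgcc
HOXD1: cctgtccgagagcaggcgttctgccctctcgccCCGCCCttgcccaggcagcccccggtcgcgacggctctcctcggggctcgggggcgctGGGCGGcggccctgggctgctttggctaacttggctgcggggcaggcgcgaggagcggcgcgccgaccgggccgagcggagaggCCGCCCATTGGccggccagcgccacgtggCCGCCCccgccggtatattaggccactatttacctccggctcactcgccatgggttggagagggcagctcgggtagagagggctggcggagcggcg
HOXD13: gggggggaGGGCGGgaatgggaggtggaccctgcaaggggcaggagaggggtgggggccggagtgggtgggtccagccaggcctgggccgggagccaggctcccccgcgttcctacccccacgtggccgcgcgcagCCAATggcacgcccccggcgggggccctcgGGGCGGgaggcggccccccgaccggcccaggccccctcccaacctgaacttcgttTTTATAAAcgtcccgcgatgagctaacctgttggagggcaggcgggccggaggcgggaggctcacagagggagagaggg
Of these windows only that of HOXD13 held TATAAA, with 2 overlapping matches upstream of the start, and that of HOXC4 and HOXC5 held no GC box. The GC content was 74.3% for HOXD1, 74.0% for HOXD13, 60.3% for HOXA6 and 51.7% for HOXC4 and HOXC5, and the median of all 34943 windows was 58.7%. Among the 26 distinct HOX windows, 17 held CCAAT, 13 held GGGCGG, 5 held TATAAA and 3 held TGATNNAT, a site of HOX and PBX proteins. Over all windows the shares were 34.6%, 44.9%, 11.6% and 7.42%. Several of the HOX windows are alternative starts of HOXA3, and HOXB1 is the only HOXB gene with a window. HOXB5, HOXB7 and HOXB9 are therefore absent from these counts, which do not stand for the HOX genes expressed here. A match is a description of the letters and was not tied to binding.

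In siControl the HOX genes were dominated by the HOXB cluster, and within it by HOXB7 and HOXB9. Levels of different genes were compared as TPM (transcript abundance scaled to a fixed total), which divides the reads by the exon length of the gene. HOXB (chr17:48528526-48728750) held 74.4% and 71.9% of the summed TPM of all HOX genes in the 2 siControl libraries, HOXC (chr12:53938831-54056030) 10.6% and 12.5%, HOXD (chr2:176092721-176190907) 9.67% and 9.30%, and HOXA (chr7:27092993-27200091) 5.28% and 6.34%. The summed level was 127 ± 18.0 TPM for HOXB (SD, n = 2), 20.3 ± 5.66 for HOXC, 16.5 ± 2.29 for HOXD and 10.2 ± 2.97 for HOXA. HOXB was thus above the other clusters in both libraries and HOXA below them, and HOXC was above HOXD within each library, although their ranges over the libraries overlapped in TPM.

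Of the 39 genes, 23 passed the filter on low values and were tested. The filter asked for a mean log2 value of at least 3.32 over the 6 libraries, the log2 value of 7.62 normalized counts. The pattern differed by cluster, with 8 of 10 genes of HOXB, 8 of 9 of HOXC, 5 of 11 of HOXA and 2 of 9 of HOXD above the filter. In HOXD these were the genes at the ends of the cluster, HOXD1 and HOXD13. The genes between them were at or near 0, with no read in any library for HOXD8, HOXD9 and HOXD10, 0 or 1 read for HOXD4, HOXD11 and HOXD12, and 0 to 3 reads for HOXD3.

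Among the genes that did not pass the filter in HOXA were HOXA2 (0 to 12 reads), HOXA4 (0 to 9), HOXA7 (0 to 3), HOXA11 (0 to 5) and HOXA13 (0 to 2). In HOXB they were HOXB1, with 0 reads in every library, and HOXB6 (0 to 4 reads), and in HOXC only HOXC12, also at 0. No fold change is given for the 16 genes that did not pass. A count of 0 allows up to 3 reads, which is 2.81 to 4.39 normalized counts depending on the library, and this limit covers counting error only.

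**Figure D1:**
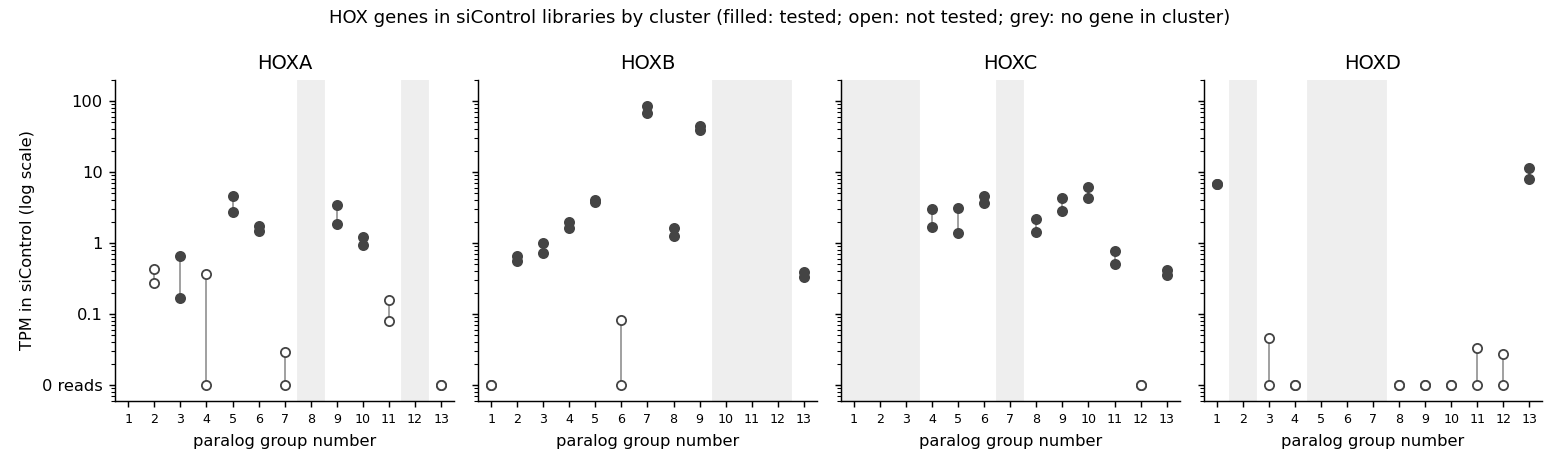
TPM of the HOX genes reported in the siControl libraries by paralog number (horizontal axis) and cluster, with a point per library on a log axis (filled: tested, open: not tested, bottom line: 0 reads, grey: no gene with that number). HOXB7 and HOXB9 stand above all others, and in HOXD only the first and last gene rise above the near-zero genes between them.

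HOXB7 had the highest level, with 67.0 and 84.6 TPM in the siControl libraries, followed by HOXB9 with 38.9 and 45.3 TPM. They stood at the 90.1 and 81.6 percentiles of all protein-coding genes, and together made up 69.0% and 66.8% of the HOX TPM. HOXD13, which patterns digits, had 8.05 and 11.3 TPM, and HOXD1 had 6.73 and 6.70 TPM. Each of these 4 genes lay above the next in the order in both libraries.

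From the fifth gene on, neighbors in the order overlapped between the libraries, with the exception of HOXB8, whose lower value exceeded the higher value of HOXA10. HOXC10 (4.36 and 6.07 TPM), HOXC6 (3.67 and 4.55), HOXB5 (3.79 and 4.10), HOXA5 (2.69 and 4.53), HOXC9 (2.87 and 4.32), HOXA9 (1.88 and 3.42), HOXC4 (1.67 and 2.995) and HOXC5 (1.37 and 3.07) had mean levels above 2 TPM. Then came HOXB4, which supports blood stem cells, HOXC8, HOXA6, HOXB8 and HOXA10 with means from 1.82 down to 1.06 TPM, and HOXB3, HOXC11, HOXB2, HOXA3, HOXC13 and HOXB13 with means from 0.866 down to 0.357 TPM. The prostate regulator HOXB13, the lowest of the genes tested, was at the 33.4 percentile of protein-coding genes.

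The siControl libraries differed in the TPM scale itself. A noncoding gene (ENSG00000280800) took 7.24% of all TPM in replicate 1 and 2.99% in replicate 2, and the HOX genes summed to 153 and 194 TPM. In normalized counts per kilobase of exon, an alternative chosen after seeing the data, the sums were 2345 and 2369. That scale also separated HOXC10, HOXA6, HOXA10, HOXB3 and HOXB2 from the next gene in its own order. Below, single genes are compared across libraries in normalized counts and the sums of clusters in normalized counts per kilobase.

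After ADAR1 knockdown, HOX genes of all 4 clusters fell, HOXA6, HOXB5, HOXB7 and HOXC5 with both siRNAs, and HOXB9 rose with siADAR1 #1. A gene was called when limma gave a Benjamini-Hochberg adjusted p under 0.05 over all 20858 genes tested and a log2 fold change (log2FC, on the deposited log2 scale) beyond 0.5 in size. With siADAR1 #1, 7 of the 23 HOX genes tested fell, which is 30.4%, while 10.6% of all genes tested fell. These were HOXA6, HOXA10, HOXB5, HOXB7, HOXC4, HOXC5 and HOXD1. HOXB9 alone rose, 4.35% of the HOX genes against 6.18% of all genes. With siADAR1 #2, 7 of 23 fell (30.4%, against 15.5% of all genes), namely HOXA5, HOXA6, HOXA9, HOXB5, HOXB7, HOXC5 and HOXD13. None rose with siADAR1 #2 by limma or by voom on the recovered reads, 1 had a higher value at an unadjusted p under 0.05, and 11.1% of all genes rose. Both comparisons use the same siControl libraries. HOXA6, counted among the falls with each siRNA, passed the filter only through its siControl libraries.

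The median log2FC of the 23 HOX genes was -0.98 with siADAR1 #1 and -0.98 with siADAR1 #2, while the medians of all genes tested were -0.02 and -0.01. Negative values were found for 19 and 20 of the 23 genes. For 13 of the 23 (56.5%) every siADAR1 value was under both siControl values, as it was for 16.6% of all genes tested, and for 1 (HOXB9) every one was above, as for 12% of all genes. HOXA3, HOXA6, HOXB2 and HOXC13 passed the filter only through siControl, since their mean over the siADAR1 libraries was under it. Their lower values followed in part from the filter and are counted in these medians and numbers, which are therefore descriptions only. In bulk RNA, fewer cells that express a gene and less RNA per cell cannot be told apart. The calls rest on 2 libraries per group, and with 1 library left out the lone library of that group was assumed to vary like the other groups. None of the 8 calls with siADAR1 #1 held under every omission, whereas those of HOXA6, HOXB5 and HOXB7 with siADAR1 #2 did. With no filter on low values the calls left were HOXB5 and HOXB7 with siADAR1 #2, and without a variance trend HOXB7, HOXB9, HOXA10, HOXC4 and HOXC5 did not pass with siADAR1 #1, nor HOXA5 and HOXC5 with siADAR1 #2.

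**Figure D2:**
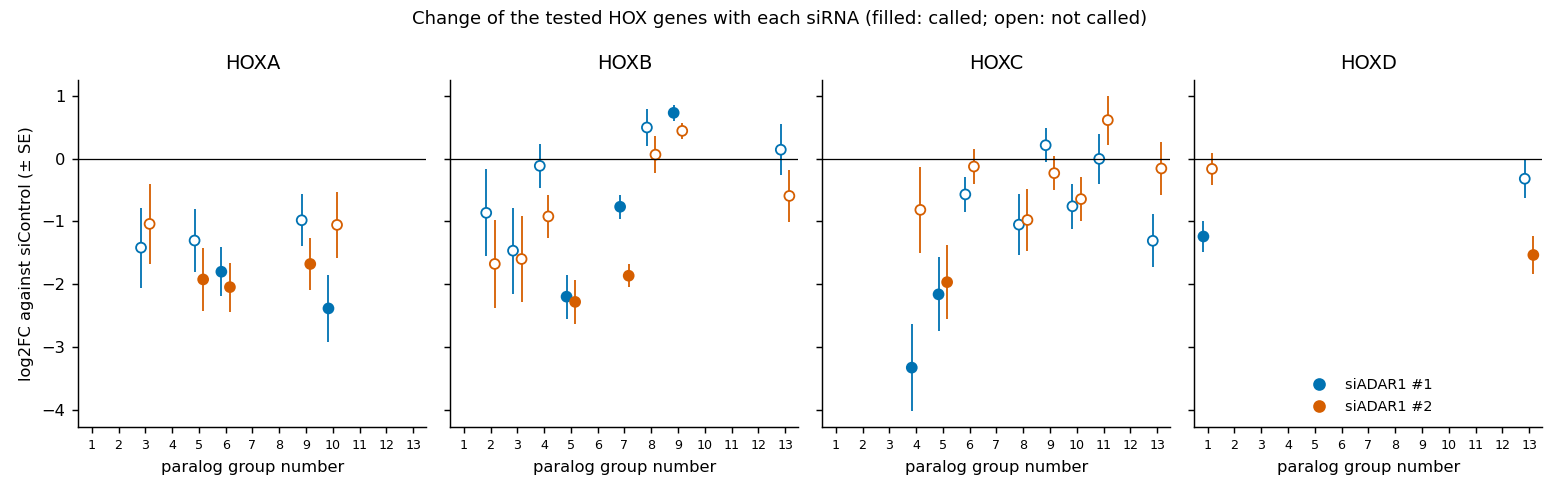
log2FC of each tested HOX gene against siControl for each siRNA by paralog number (horizontal axis) and cluster, with standard errors as bars (filled: called, open: not called). Most points lie below 0, HOXB9 lies above 0 with both siRNAs, and HOXC4 has the lowest value (-3.33, siADAR1 #1).

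HOXB7 and HOXB9, with HOXB8 between them in the cluster, moved in opposite directions with siADAR1 #1, and HOXB7 also fell with siADAR1 #2. HOXB7, a factor found raised in several carcinomas, had 1556 and 1568 normalized counts in siControl, 839 and 1001 with siADAR1 #1, and 365 and 499 with siADAR1 #2. Its groups did not overlap, and the siADAR1 #2 libraries were the lowest. It fell with siADAR1 #1 (log2FC -0.77, SE 0.19, limma adjusted p = 0.0272) and with siADAR1 #2 (-1.86, SE 0.19, adjusted p = 0.000537), to 58.9% and 27.7% of siControl. The value with siADAR1 #2 was lower than that with siADAR1 #1 by its own test (-1.10, SE 0.19, adjusted p = 0.00308). The call with siADAR1 #1 ended without siControl replicate 1 (adjusted p = 0.136), siControl replicate 2 (0.127) or siADAR1 #1 replicate 1 (0.135), and the other two held under every omission.

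HOXB9, which acts in the thoracic skeleton and mammary gland, had 1535 and 1427 normalized counts in siControl, 2333 and 2575 with siADAR1 #1, and 1921 and 2100 with siADAR1 #2. All siADAR1 libraries were above siControl. It rose with siADAR1 #1 (log2FC 0.73, SE 0.13, limma adjusted p = 0.00943) to 166% of siControl. With siADAR1 #2 its log2FC of 0.44 (SE 0.13, adjusted p = 0.034) was under the required size of 0.5, at 136% of siControl, and in quantile-normalized libraries the log2FC was 0.60 (adjusted p = 0.0049). The rise with siADAR1 #1 did not pass without siControl replicate 1 (0.78, adjusted p = 0.0612) or replicate 2 (0.67, adjusted p = 0.0629), with no filter on low values (adjusted p = 0.0774) or without a variance trend in the fit (adjusted p = 0.0537).

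The ratio of HOXB7 to HOXB9 in TPM was 1.72 and 1.87 in siControl, 0.612 and 0.661 with siADAR1 #1, and 0.323 and 0.405 with siADAR1 #2. HOXB7 was thus the higher of the pair in both siControl libraries and the lower in all 4 siADAR1 libraries. HOXB7 took 43.7% and 43.5% of the HOX TPM in siControl and 18.0% and 20.2% with siADAR1 #2, while the share of HOXB9 was 25.3% and 23.3% in siControl and 55.6% and 49.97% with siADAR1 #2. The annotated span of HOXB7 (chr17:48607232-48633572) reaches over HOXB8 and HOXB9 (chr17:48621156-48626358), and HOXB7 and HOXB9 share 0 exon bases with any gene.

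**Figure D3:**
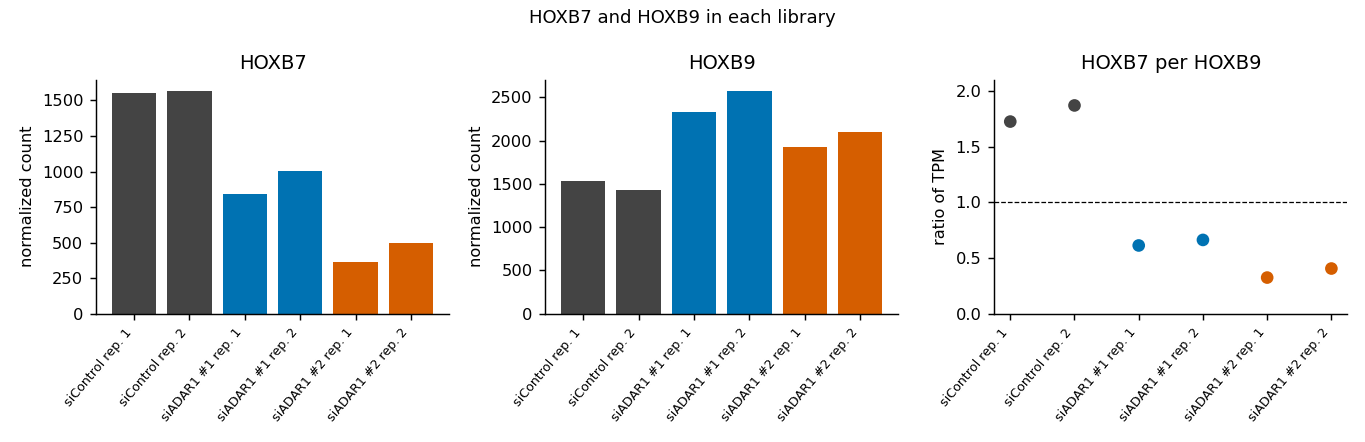
Normalized counts of HOXB7 and of HOXB9 as bars, and the ratio of their TPM as points, in each of the 6 libraries. The ratio is above the dashed line at 1 in the siControl libraries and between 0.323 and 0.661 in the siADAR1 libraries.

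HOXB5, which acts in lung and gut development and was among the genes that the study chose for qPCR, had 108 and 92.8 normalized counts in siControl, 22.4 and 17.6 with siADAR1 #1, and 14.7 and 23.4 with siADAR1 #2. All siADAR1 libraries were far below siControl and overlapped each other. HOXB5 fell with siADAR1 #1 (log2FC -2.20, SE 0.35, limma adjusted p = 0.00709) and with siADAR1 #2 (-2.28, SE 0.35, adjusted p = 0.00258), to 20.0% and 19.0% of siControl. Without siControl replicate 1 the value with siADAR1 #1 was -2.09 and did not pass (adjusted p = 0.0681), while the call with siADAR1 #2 held under every omission.

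The other genes of HOXB did not pass with either siRNA. HOXB2 and HOXB3, which pattern the hindbrain, had log2FC values of -0.86 (SE 0.69) and -1.47 (SE 0.69) with siADAR1 #1 and -1.68 and -1.60 with siADAR1 #2. For both, all 4 siADAR1 libraries were below siControl, and HOXB3 with siADAR1 #2 passed in a fit that blocked on the replicate number (adjusted p = 0.0288). HOXB2 passed the filter only through its siControl libraries. The range within a group was wide, with 12.5 and 55.7 normalized counts of HOXB3 and 1.13 and 13.2 of HOXB2 in the siADAR1 #2 libraries. Without siADAR1 #2 replicate 2, HOXB2 (-2.83, limma adjusted p = 0.00762) and HOXB3 (-2.58, 0.0224) passed with siADAR1 #2, and HOXB2 also differed between the siRNAs (-1.96, 0.0259). Over all alternatives with siADAR1 #2 their values ran from -2.83 to -0.53 and from -2.58 to -0.62. HOXB4 had log2FC values of -0.12 and -0.92 (SE 0.35), HOXB8 0.49 and 0.06 (SE 0.29), and HOXB13 0.14 and -0.59 (SE 0.41).

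Of the HOXA genes tested, all 5 had lower values with both siRNAs, but HOXA3 and HOXA6 passed the filter only through siControl. HOXA6 had 29.4 and 27.5 normalized counts in siControl, 5.61 and 7.54 with siADAR1 #1, and 4.54 and 5.86 with siADAR1 #2, from 4 to 6 reads per siADAR1 library. The siADAR1 libraries overlapped each other and were all below siControl. HOXA6 fell with siADAR1 #1 (log2FC -1.80, SE 0.39, limma adjusted p = 0.0182) and siADAR1 #2 (-2.05, SE 0.39, adjusted p = 0.00629). The call with siADAR1 #1 ended without siControl replicate 1 (adjusted p = 0.107), siControl replicate 2 (0.084) or siADAR1 #1 replicate 1 (0.0983). The exons of HOXA6 overlap the antisense gene HOXA-AS3 over 505 bases, and the counting strand was not given in the sources used here, so reads of this overlap cannot be told apart.

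HOXA5, which takes part in lung development, had 70.8 and 94.9 normalized counts in siControl, 18.7 and 52.8 with siADAR1 #1, and 14.7 and 26.4 with siADAR1 #2. All siADAR1 libraries were below siControl, with a wide gap between the siADAR1 #1 libraries. HOXA5 fell with siADAR1 #2 (log2FC -1.92, SE 0.51, limma adjusted p = 0.0239), whereas the value with siADAR1 #1 was -1.30 (adjusted p = 0.117, or 0.037 when blocking on replicate number, and -1.997 with 0.0302 without siADAR1 #1 replicate 2). The test of the difference did not pass (-0.62, adjusted p = 0.384). Without siControl replicate 1, siControl replicate 2 or siADAR1 #2 replicate 1, the adjusted p with siADAR1 #2 was 0.0884, 0.137 and 0.126.

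HOXA9, a regulator of blood progenitors and a driver of leukemia, had 87.1 and 126 normalized counts in siControl, 47.7 and 56.5 with siADAR1 #1, and 20.4 and 46.9 with siADAR1 #2. Both siRNAs gave lower values than siControl, with the siADAR1 #2 libraries below the siADAR1 #1 libraries. It fell with siADAR1 #2 (log2FC -1.68, SE 0.42, limma adjusted p = 0.0191) and had a log2FC of -0.98 with siADAR1 #1 (adjusted p = 0.146), and the difference did not pass (-0.70, adjusted p = 0.233). The call ended without siControl replicate 1 (adjusted p = 0.061), siControl replicate 2 (0.124) or siADAR1 #2 replicate 1 (-1.12, 0.097).

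HOXA10, which acts in the uterus, had 52.3 and 54.1 normalized counts in siControl, 4.68 and 13.8 with siADAR1 #1, and 15.9 and 36.6 with siADAR1 #2. Here the siADAR1 #1 libraries were the lowest and did not overlap those of siADAR1 #2. It fell with siADAR1 #1 (log2FC -2.38, SE 0.53, limma adjusted p = 0.0198) and had a log2FC of -1.06 with siADAR1 #2 (adjusted p = 0.176). The siRNAs differed by 1.33 without passing the test (adjusted p = 0.0847, or 0.0375 when blocking on replicate number, and 1.94 with 0.0343 without siADAR1 #1 replicate 2). The call with siADAR1 #1 ended without siControl replicate 1 (adjusted p = 0.114), siControl replicate 2 (0.106) or siADAR1 #1 replicate 1 (-1.78, 0.0996). HOXA9 and HOXA10 overlap the antisense HOXA10-AS over 422 and 608 exon bases, and a readthrough gene of the pair (ENSG00000257184) had 0 reads. HOXA3 had 10.9 and 34.7 normalized counts in siControl and log2FC values of -1.42 and -1.04 (SE 0.64), neither of which passed.

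HOXC4 and HOXC5 gave the calls of the HOXC cluster. HOXC4, known from B lymphocytes, had 70.8 and 101 normalized counts in siControl, 1.87 and 16.3 with siADAR1 #1, and 34.0 and 64.5 with siADAR1 #2. The siADAR1 #1 libraries were the lowest, the first of them with 2 reads, under the limit of 3, and the 3 groups did not overlap. HOXC4 fell with siADAR1 #1 (log2FC -3.33, SE 0.69, limma adjusted p = 0.0162) to 10.6% of siControl and had a log2FC of -0.82 with siADAR1 #2 (adjusted p = 0.422). The siRNAs differed (2.51, SE 0.69, adjusted p = 0.0234).

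Single libraries weighed on the HOXC4 values. Without siADAR1 #1 replicate 1 the fall was -2.21 (adjusted p = 0.0438) and without siADAR1 #1 replicate 2 it was -4.44 (0.00238). It did not pass without siControl replicate 1 (-3.58, adjusted p = 0.0922) or replicate 2 (-3.08, 0.108). The difference between the siRNAs did not pass without siControl replicate 1 (adjusted p = 0.0512), siControl replicate 2 (0.0518), siADAR1 #1 replicate 1 (1.40, 0.0758) or siADAR1 #2 replicate 2 (2.07, 0.107), nor without a variance trend (0.0653) or with only the libraries of both siRNAs in the fit (0.0525). HOXC4 shares 484 exon bases with HOXC6.

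HOXC5 had 33.8 and 60.2 normalized counts in siControl, 4.68 and 13.8 with siADAR1 #1, and 5.67 and 16.1 with siADAR1 #2. Both siRNAs left it below siControl in every library, and their ranges overlapped. It fell with siADAR1 #1 (log2FC -2.16, SE 0.59, limma adjusted p = 0.0404) and siADAR1 #2 (-1.97, SE 0.59, adjusted p = 0.0394), to 19.7% and 23.2% of siControl. Without siControl replicate 1, siControl replicate 2 or replicate 1 of the siRNA, the values were -2.56, -1.77 and -1.55 for siADAR1 #1 (adjusted p = 0.114, 0.208 and 0.203) and -2.36, -1.57 and -1.36 for siADAR1 #2 (adjusted p = 0.0906, 0.207 and 0.2). Of its exon bases 67.3% lie in other annotated genes, among them ENSG00000273046 with 0 to 13 reads.

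The genes with the highest HOXC levels did not pass with either siRNA. HOXC10, which marks hindlimb motor neurons, had 158 and 175 normalized counts in siControl, 66.4 and 142 with siADAR1 #1, and 98.7 and 113 with siADAR1 #2. HOXC6 had 194 and 192 in siControl, 113 and 147 with siADAR1 #1, and 139 and 223 with siADAR1 #2. All siADAR1 libraries were below siControl for HOXC10, while HOXC6 overlapped siControl with siADAR1 #2. The log2FC values were -0.76 and -0.65 for HOXC10 (SE 0.36, limma adjusted p = 0.184 and 0.216) and -0.57 and -0.13 for HOXC6 (SE 0.28, adjusted p = 0.206 and 0.778). HOXC10 passed with siADAR1 #1 without siADAR1 #1 replicate 2 (-1.29, adjusted p = 0.0263), and over all alternatives its value ran from -1.29 to -0.23. HOXC8 had -1.05 and -0.98 (SE 0.49), with all 4 siADAR1 libraries below siControl, and passed with siADAR1 #2 without siADAR1 #2 replicate 2 (-1.65, adjusted p = 0.0424, in a range from -1.65 to -0.31). The values of HOXC9 were 0.21 and -0.23 (SE 0.27), those of HOXC11 -0.01 and 0.61 (SE 0.39), and those of the hair follicle factor HOXC13 -1.31 and -0.16 (SE 0.42), and none of them passed. Without a variance trend HOXC13 passed with siADAR1 #1 (adjusted p = 0.0482) and between the siRNAs (1.15, adjusted p = 0.0255).

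The expressed ends of the HOXD cluster each fell with a different siRNA. HOXD1 had 194 and 154 normalized counts in siControl, 75.7 and 67.8 with siADAR1 #1, and 170 and 139 with siADAR1 #2. Both siADAR1 #1 libraries were below siControl, and siADAR1 #2 overlapped it. HOXD1 fell with siADAR1 #1 (log2FC -1.24, SE 0.25, limma adjusted p = 0.015), had a log2FC of -0.16 with siADAR1 #2 (adjusted p = 0.67), and differed between the siRNAs (1.08, SE 0.25, adjusted p = 0.0119). The fall did not pass without siControl replicate 1 (-1.08, adjusted p = 0.105), siControl replicate 2 (-1.40, 0.0555) or siADAR1 #1 replicate 1 (-1.32, 0.0509), nor did the difference without siADAR1 #2 replicate 1 (0.93, adjusted p = 0.0764). Other annotated genes cover 60.1% of its exon bases, among them the antisense genes HAGLR (252 to 511 reads) and ENSG00000279160 (4 to 14 reads).

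HOXD13 had 297 and 334 normalized counts in siControl, 220 and 288 with siADAR1 #1, and 80.5 and 142 with siADAR1 #2. The siADAR1 #2 libraries were the lowest, and no group overlapped another. It fell with siADAR1 #2 (log2FC -1.53, SE 0.30, limma adjusted p = 0.00701), had a log2FC of -0.32 with siADAR1 #1 (adjusted p = 0.508), and differed between the siRNAs (-1.21, SE 0.30, adjusted p = 0.0151). Without siControl replicate 2 the fall was -1.45 and did not pass (adjusted p = 0.057). The difference did not pass without siADAR1 #1 replicate 2 (-1.02, adjusted p = 0.0702) or siADAR1 #2 replicate 1 (-0.81, adjusted p = 0.077).

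**Figure D4:**
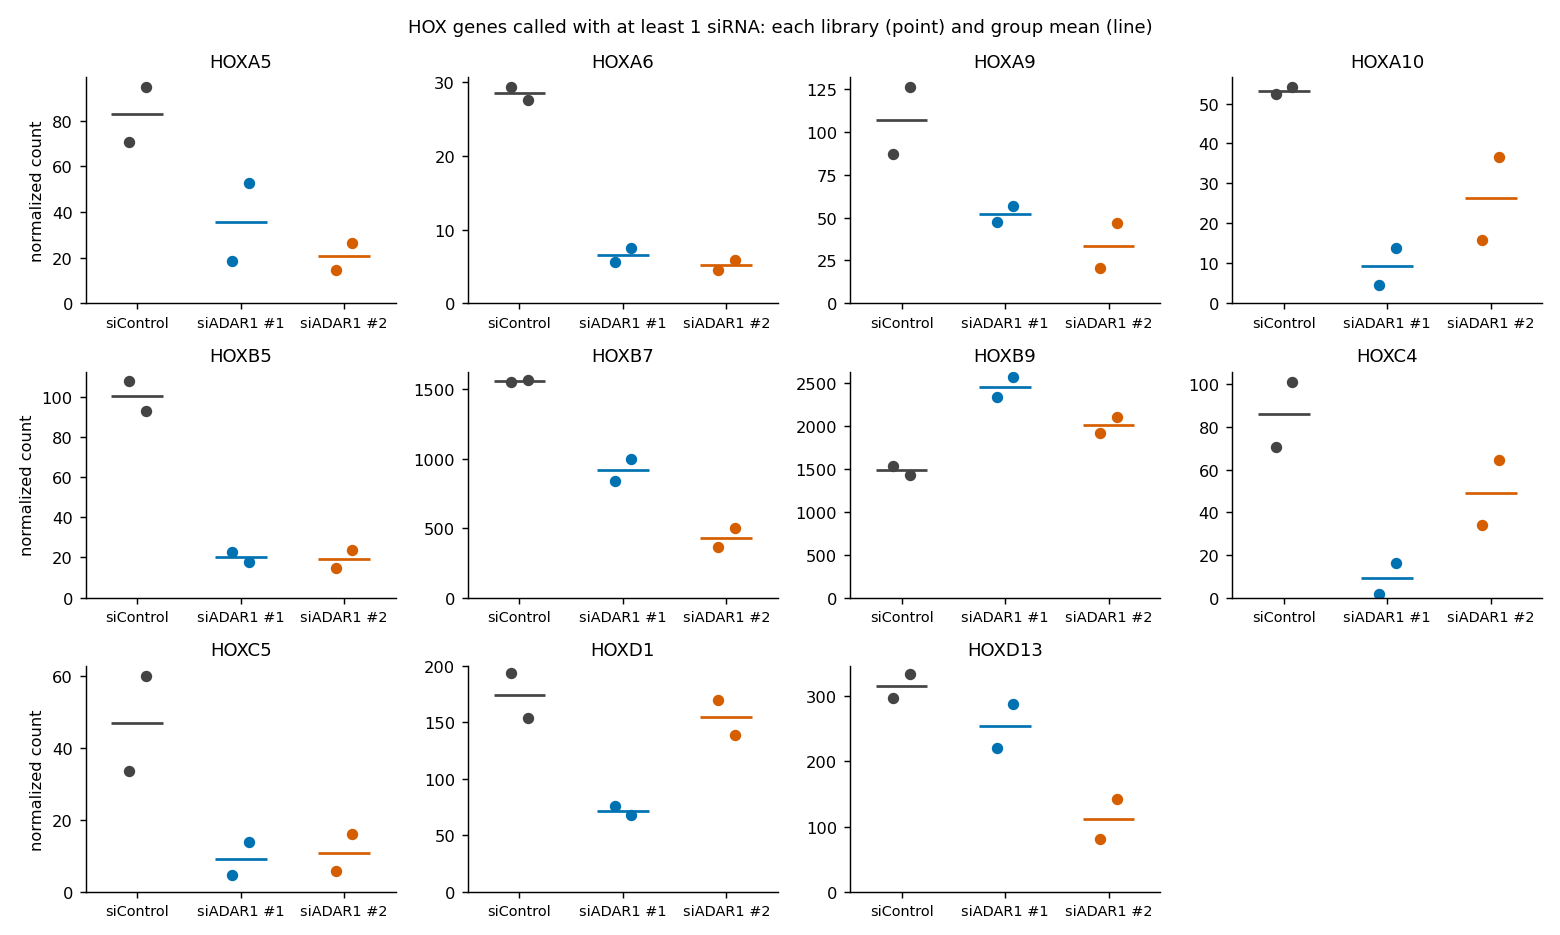
Normalized counts of the 11 HOX genes called against siControl with at least 1 siRNA, with a point per library and a line at the group mean. HOXB5, HOXA6 and HOXC5 are low with both siRNAs, HOXD1 is low only in siADAR1 #1, and HOXB9 is higher in all siADAR1 libraries.

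Between the siRNAs, 2 of the 23 HOX genes were lower with siADAR1 #2 (HOXB7 and HOXD13, 8.70%, against 16.1% of all genes tested) and 2 were higher (HOXC4 and HOXD1, 8.70%, against 16.7%). Both shares were below those of all genes. The median difference was -0.13, and 0.00 over all genes. All 8 HOXB genes had a lower value with siADAR1 #2 than with siADAR1 #1, from -1.10 (HOXB7) to -0.08 (HOXB5), and of these only HOXB7 passed.

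When each cluster was summed in normalized counts per kilobase, HOXA was 124 and 150 in siControl, 34.9 and 65.4 with siADAR1 #1, and 26.4 and 52.3 with siADAR1 #2. That left 36.6% and 28.7% of the siControl mean. HOXC was 249 and 296 in siControl, 143 and 194 with siADAR1 #1, and 160 and 228 with siADAR1 #2 (61.8% and 71.1%). Of the HOXC genes tested, HOXC9 was at 116% and 84.3% of siControl, HOXC11 at 102% and 161%, and HOXC6 at 67.5% and 93.9%. The others had lower means with both siRNAs, and only HOXC4 (siADAR1 #1) and HOXC5 were called. HOXD was 227 and 220 in siControl, 132 and 155 with siADAR1 #1, and 125 and 134 with siADAR1 #2 (64.3% and 57.9%). In normalized counts per kilobase, the sums of these 3 clusters were below siControl in all siADAR1 libraries. In summed TPM this held for HOXA and HOXD, whereas HOXC overlapped siControl with siADAR1 #2. HOXC was 19.7 TPM in siADAR1 #2 replicate 2 and 16.3 TPM in siControl replicate 1. The HOXD sum holds almost only HOXD1, at 41.3% and 88.9% of siControl, and HOXD13, at 80.4% and 35.3%. Its similar values with the 2 siRNAs thus come mostly from different genes.

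The sum of HOXB was 1745 and 1702 in siControl, 1528 and 1732 with siADAR1 #1, and 1024 and 1212 with siADAR1 #2 (94.5% and 64.9% of siControl), so that siADAR1 #1 overlapped siControl. This sum joins the lower HOXB7 with the higher HOXB9. Without that pair, the other 8 HOXB genes summed to a mean of 124 ± 6.18 in siControl (SD, n = 2), 75.6 ± 2.39 with siADAR1 #1 and 56.0 ± 21.0 with siADAR1 #2, and all siADAR1 libraries were below siControl. HOXB5 held 54.0 of the 124 in siControl and was left at 20.0% and 19.0% of its siControl level. HOXB2 and HOXB3 were also lower with both siRNAs. HOXB4 was at 92.3% and 52.0%, HOXB8 at 143% and 106%, and HOXB13 at 113% and 62.7%. The lower sum is thus not a fall of every gene in it. For the 37 HOX genes other than HOXB7 and HOXB9 the sum was 57.9% and 55.3% of siControl.

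**Figure D5:**
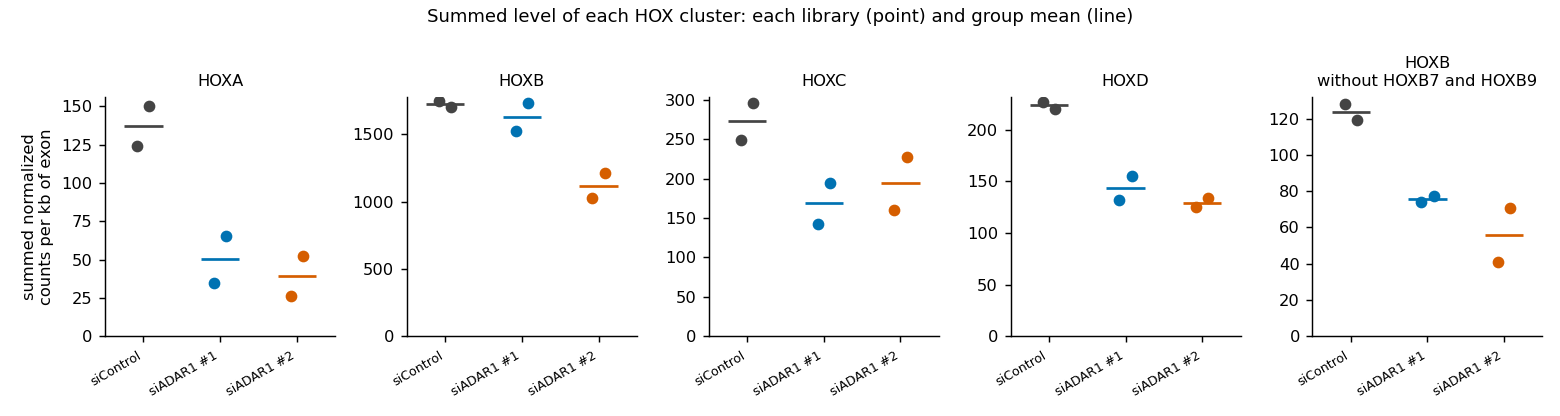
Summed HOX level of each cluster in normalized counts per kilobase of exon, with a point for each of the 6 libraries and a line at the group mean, and HOXB also without HOXB7 and HOXB9. HOXA, HOXC and HOXD are lower in every siADAR1 library, and HOXB overlaps siControl with siADAR1 #1.

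The log2FC was also set against the position in the cluster, pooling the clusters. Paralog groups 1 to 3 (4 of 8 genes tested) had median log2FC values of -1.33 with siADAR1 #1 and -1.32 with siADAR1 #2, groups 4 to 8 (10 of 15 tested) -1.18 and -1.42, and groups 9 to 13 (9 of 16 tested) -0.32 and -0.59. In groups 1 to 3, HOXA3 and HOXB2 passed the filter only through siControl, so the low medians there were in part fixed by the filter. The same holds for HOXA6 in groups 4 to 8 and HOXC13 in groups 9 to 13. Groups 4 to 8 held 56.9% of the HOX TPM in siControl and groups 9 to 13 held 37.8%. Most of each share came from 1 gene, HOXB7 (43.7% and 43.5% in the siControl libraries) and HOXB9 (25.3% and 23.3%). Of the 10 genes tested in groups 4 to 8, 5 fell with each siRNA. Of the 9 in groups 9 to 13, 1 fell and 1 rose with siADAR1 #1 and 2 fell with siADAR1 #2. Of the 4 in groups 1 to 3, 1 fell with siADAR1 #1 and 0 with siADAR1 #2. Of all genes tested, 10.6% fell and 6.18% rose with siADAR1 #1, and 15.5% fell with siADAR1 #2. The counts of groups 9 to 13 were near these shares. The Spearman rank correlation of paralog number with log2FC was 0.71 and 0.57 in HOXB (8 genes), 0.48 and 0.60 in HOXC (8 genes), and -0.3 and -0.1 in HOXA (5 genes), so the sign differed between clusters. In HOXD, HOXD1 was the lower of its 2 genes with siADAR1 #1 and HOXD13 with siADAR1 #2. These are descriptions over neighboring genes of the same libraries and were not tested.

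In group 5, which has no gene in HOXD, HOXB5 and HOXC5 fell with both siRNAs and HOXA5 with siADAR1 #2. Over all genes tested, 10.6% fell with siADAR1 #1 and 15.5% with siADAR1 #2, and a paralog group is too small to set against these shares. In group 9, HOXB9 rose with siADAR1 #1, HOXA9 fell with siADAR1 #2, and HOXC9 passed with neither. In group 13, HOXD13 fell with siADAR1 #2 and neither HOXB13 nor HOXC13 passed.

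Of 24 HOX antisense and other noncoding RNAs found in the table (28 were listed), 9 were tested, with 1 lower with each siRNA (11.1%, against 10.6% and 15.5% of all genes) and 0 higher. These shares were near or below those of all genes. HOXA-AS3, antisense to HOXA6, had a log2FC of -1.66 with siADAR1 #1 (limma adjusted p = 0.022) and -0.97 with siADAR1 #2 (0.0941). HOXA10-AS had -1.70 (adjusted p = 0.0613) and -1.65 (0.0494). HAGLROS (0.93 and 1.31) and HOXB-AS4 (-0.09 and 0.59) passed with neither. The part of reads from HOXA-AS3 and HOXA10-AS in the values of the HOXA genes they overlap was not tested.

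Of 13 tested genes that flank the clusters, 3 fell (23.1%) and 0 rose with siADAR1 #1, and 2 fell (15.4%) and 1 rose (7.69%) with siADAR1 #2. Over all genes tested 10.6% fell and 6.18% rose with siADAR1 #1, and 15.5% fell and 11.1% rose with siADAR1 #2. Beside HOXA, SKAP2 fell with siADAR1 #1 (log2FC -1.24, limma adjusted p = 0.00487) and had 0.41 with siADAR1 #2, and HIBADH had -0.79 (adjusted p = 0.00889) and 0.49. Beside HOXC, CBX5, a heterochromatin protein, had 0.46 with siADAR1 #1 and fell with siADAR1 #2 (-1.87, adjusted p = 0.000574), and CALCOCO1 had -0.53 and rose with siADAR1 #2 (1.36, adjusted p = 0.00105). The median log2FC of the flanking genes was 0.11 with siADAR1 #1 and 0.21 with siADAR1 #2.

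Of the 10 PBX, MEIS and PKNOX cofactors, which bind DNA with HOX proteins, 2 fell with siADAR1 #1 (20%, against 10.6% of all genes), and 1 fell and 1 rose with siADAR1 #2 (10% each, against 15.5% and 11.1%). PBX3 (log2FC -0.65, limma adjusted p = 0.0136) and MEIS1 (-1.03, adjusted p = 0.0359) fell with siADAR1 #1 and had 0.23 and 0.37 with siADAR1 #2. PKNOX2 fell (-1.31, adjusted p = 0.0487) and PBXIP1, which binds PBX proteins, rose (0.68, adjusted p = 0.0208) with siADAR1 #2. The median of the list was -0.08 and 0.22.

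The Polycomb group, which silences HOX genes, had 5 of 34 members lower (14.7%) and 3 higher (8.82%) with siADAR1 #1, and 12 lower (35.3%) and 2 higher (5.88%) with siADAR1 #2. Of all genes, 10.6% were lower and 6.18% higher with siADAR1 #1, and 15.5% and 11.1% with siADAR1 #2. PCGF6 (log2FC -1.86, limma adjusted p = 0.000272), YAF2 (-1.79, 0.000359) and the PRC2 subunit EED (-1.03, 0.000723) fell with siADAR1 #2. CBX7, a PRC1 subunit, fell with siADAR1 #1 (-0.66, adjusted p = 0.0295) and rose with siADAR1 #2 (1.63, adjusted p = 0.000565). The medians were -0.04 and -0.31. Of 21 Trithorax and MLL complex genes, which keep HOX genes active, 5 fell (23.8%) and 0 rose with siADAR1 #1, and 3 fell (14.3%) and 2 rose (9.52%) with siADAR1 #2, the latter shares near those of all genes. MLLT1 (-1.41, adjusted p = 0.00309), ASH2L (-1.26, 0.00338) and CXXC1 (-0.99, 0.00655) fell with siADAR1 #1, PSIP1 fell with siADAR1 #2 (-1.06, 0.00232), and the medians of the list were -0.23 and -0.15.

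Retinoic acid induces HOX genes through its nuclear receptors, and of 13 genes of this pathway tested, 4 fell with siADAR1 #1 (30.8%, against 10.6% of all genes) and 5 with siADAR1 #2 (38.5%, against 15.5%), while 0 rose. With siADAR1 #2 the falls included ALDH1A3, which makes retinoic acid (log2FC -3.86, limma adjusted p = 0.0005), the corepressor NCOR1 (-1.56, 0.000502), the carrier CRABP2 (-2.27, 0.00176) and the receptor RARG (-1.90, 0.00221). None of these 4 passed with siADAR1 #1, where the values were -0.74, -0.22, -0.22 and -0.53. The 6 CDX and ParaHox genes, relatives of the HOX family, had at most 15 reads and were not tested.

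Among 10 tested genes of the thyroid lineage, 0 changed with siADAR1 #1, where 10.6% of all genes fell and 6.18% rose. With siADAR1 #2, 2 fell (20%, near the 15.5% of all genes), PAX8 (log2FC -1.99, limma adjusted p = 0.00354) and FOXE1 (-1.21, 0.0239). DUOX1 had 0.99 and 0.74 and DIO2 -0.77 and 1.66, and neither passed. Of the 4 epithelial markers, KRT18 fell (-0.85, adjusted p = 0.00271) and KRT19 rose (1.18, adjusted p = 0.00057) with siADAR1 #2. That is 25% each, against 15.5% and 11.1% of all genes, in a list of only 4. None passed both criteria with siADAR1 #1. COL1A1, a fibroblast marker that cultured tumor cells also express, fell with both siRNAs (-0.80, adjusted p = 0.0243, and -0.91, adjusted p = 0.00891), and the endothelial marker PECAM1 had 5 to 34 reads. The part of these changes in the HOX values was not tested.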

How the data were processed

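The authors processed the libraries with bcbio-nextgen on GRCh38, examining reads with FastQC, trimming adapters with Atropos and counting reads on known genes with featureCounts and Salmon. The deposited table holds log2 values, which the authors made from counts normalized with DESeq2 by a variance-stabilizing transformation. This was read from the values, since undoing the transformation gave whole reads for 100% of them (tolerance 0.1). All 6 value columns were used and 0 were left unused. A symbol was found for 57830 of 58333 identifiers.

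Groups were tested with limma 3.58.1 under R 4.3.3, by lmFit and a trended eBayes (two-sided, Benjamini-Hochberg adjustment), in 1 fit of 3 groups with 3 residual degrees of freedom. Genes were tested when their mean log2 value was at least 3.32, and called at an adjusted p under 0.05 and a log2FC beyond 0.5. Fold changes of genes with few reads are understated on this scale. TPM was computed from the recovered reads and the union of exons. The code was tested on simulated data of known changes.

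Same-numbered libraries deviated together to a small extent: over genes, their gaps from replicate 1 to replicate 2 correlated with r = 0.106 for siControl with siADAR1 #1, 0.110 for siControl with siADAR1 #2 and 0.162 for the siRNAs with each other. The labels name no shared batch. The fit was made without the replicate number, and the number was tried as a block.

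The HOX genes are named, and some items are not reported here. Values in every library are given for those called, for the 2 highest of each cluster in siControl and for HOXB5, and at most 4 genes of each other list, those with the smallest adjusted p. The HOX genes and the lists were chosen with earlier results of these data known, and the lists were written from general knowledge. The alternatives were other filters, scalings, variance models, libraries in the fit, log scales and gene lengths, voom on the recovered reads, and each library left out in turn.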

Additional observations from a re-analysis of the deposited data

Results flagged for a closer look

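For 4 HOX genes the change against siControl differed between the 2 siRNAs by limma's test of the difference itself (Benjamini-Hochberg adjusted p over all genes tested, with 2 libraries per group). The difference, siADAR1 #2 minus siADAR1 #1 on the log2 scale, was -1.10 for HOXB7 (adjusted p = 0.00308), which fell with both siRNAs and to a lower level with siADAR1 #2. It was 2.51 for HOXC4 (adjusted p = 0.0234) and 1.08 for HOXD1 (adjusted p = 0.0119), which fell with siADAR1 #1 and did not pass with siADAR1 #2. For HOXD13 it was -1.21 (adjusted p = 0.0151), with a fall called with siADAR1 #2 and none called with siADAR1 #1. HOXB7 kept this call with each of the 6 libraries left out in turn, and the other 3 genes did not. ADAR itself was left at 15.8% and 20.3% of siControl, and this difference did not pass the test (log2 difference 0.35, adjusted p = 0.404). The cause of the differences between the siRNAs was not tested.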

How the results depend on the processing

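Every called HOX gene kept its direction under every alternative run, in the comparison in which it was called. The numbers called, 8 with siADAR1 #1, 7 with siADAR1 #2 and 4 between the siRNAs, were 0, 2 and 0 with no filter on low values (all 58333 genes tested), 3 and 3 with siADAR1 #1 and #2 at a filter of 50 (9 HOX genes tested), and 4 with siADAR1 #1 without a variance trend. With 1 library left out they ranged from 0 to 10, 3 to 10 and 2 to 4. The 0 with siADAR1 #1 came without siControl replicate 1, where limma left 8 lower and 1 higher at an unadjusted p under 0.05. Calls by voom were 8, 7 and 4. A fit that blocked on the replicate number (replicate block) gave 9, 8 and 5, adding the calls of HOXA5, HOXB3 and HOXA10 given above, and no other call changed.

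Median centring moved the median log2FC of all genes with siADAR1 #1 from -0.02 to 0.12 and the split of higher and lower calls from 1290 and 2212 to 1951 and 1706 (1692 and 1852 with quantile normalization), and between the siRNAs from 3488 and 3350 to 2854 and 4274 with median centring. The HOX calls were again 1 higher and 7 lower. The values that changed sign were all of genes not called in that comparison, and are given as the range with 1 library left out. With siADAR1 #1 they were HOXC11 (-0.33 to 0.32, and 0.14 median-centred), HOXB4 (-0.25 to 0.020, and 0.028 median-centred) and HOXB13 (-0.081 to 0.36). With siADAR1 #2 they were HOXB8 (-0.15 to 0.27, and -0.096 quantile-normalized), HOXC13 (-0.40 to 0.086) and HOXC6 (-0.46 to 0.21). Between the siRNAs they were HOXC8 (-0.60 to 0.74, with -0.055 median-centred and -0.032 quantile-normalized), HOXC10 (-0.42 to 0.65, with -0.014 and -0.037), HOXB5 (-0.38 to 0.21), HOXC5 (-0.41 to 0.80), HOXA5 (-1.31 to 0.073), HOXB3 (-1.11 to 0.85), HOXB2 (-1.96 to 0.34) and HOXA3 (-0.28 to 1.04).

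The summed siControl level depended on the gene length used, with 103 TPM for HOXB and 12.5 for HOXD by the longest transcript, and for HOXD 11.5 by coding length and 24.0 without shared exon bases. Most HOX genes had few reads, so small changes were not detectable at this depth, and 2 libraries per group limit every call.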
